A study of Brassica napus with 6 samples.

Results

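Among the 101040 gene identifiers measured in microspore cultures of Brassica napus (oilseed rape), 75 were read in pollen culture at a low level and stood at least 4 times higher in every culture given heat stress plus trichostatin A (TSA). They were chosen by their values in these same libraries. CPM is the read count of an identifier scaled to counts per 1000000 of its library total. A member had at least 20 CPM in each of the 3 treated libraries, a lowest treated CPM at least 4 times its highest pollen-culture CPM, and more than 3 reads summed over the 3 pollen-culture libraries. The difference between the groups is therefore built into the members, and it is given below as a description.

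All 6 libraries came from late unicellular microspores of genotype DH12075, and each of the 2 groups had 3 biological replicates. The treated group (heat stress plus TSA) was held at 33 °C with 0.05 µM TSA for 24 h, and the pollen-culture group at 25 °C with DMSO, the solvent of TSA, although its treatment label reads untreated. Both were then washed into fresh medium, kept at 25 °C and collected on day 2. The labelled material is microspores and pollen in the control, with embryogenic cells besides in the treated group, so each library is a mixture. In such bulk samples more cells of a type and more RNA per cell cannot be told apart. Heat and TSA were given together, so their parts cannot be told apart either, and the starting microspores were not analysed here.

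Microspores are the haploid cells that normally divide to form pollen. In culture, stress can turn some of them from this path to dividing embryogenic cells that grow into haploid embryos, and heat is the usual trigger in Brassica napus. TSA blocks histone deacetylases, enzymes that remove acetyl groups from histones, and histone acetylation generally goes with transcribed chromatin. The identifiers carry no gene names, and none (0 of 101040) matched an entry of RefSeq's table of Da-Ae genes. The members' functions, positions and sequences are therefore not given, the embryo, pollen and tissue markers could not be checked, and only 2 members are printed by identifier. Reads from near-identical copies on the A and C subgenomes may have been shared or lost in counting, which touches every single value.

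Library totals ran from 11758677 to 24773444 counts, and 20 CPM corresponded to between 235 and 495 reads. Replicate 1 stood apart in both groups among the members, and in the treated group also over a wider set of identifiers. Across the 75 members, Pearson's r of log2 CPM was 0.94 between treated replicates 2 and 3, against 0.76 and 0.72 between treated replicate 1 and each of them. Over the 8015 identifiers with at least 20 CPM in every treated library, the same values were 0.94, 0.76 and 0.74. In pollen culture, on log2 (CPM + 0.1) and across the members alone, it was 0.96 between replicates 2 and 3 and 0.78 and 0.76 with replicate 1. Members are not independent of each other, and these values describe the libraries. The number of members, their levels and folds, and the fitted treatment difference are therefore also given without replicate 1.

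Few of the identifiers that were well read after treatment met the limit of 4 times over pollen culture. At least 20 CPM in each treated library was reached by 8015 identifiers, and 101 of these had a lowest treated value at least 4 times the highest pollen-culture value. Of the 101, 26 had at most 3 reads over pollen culture, which left the 75 members. The same level and ratio in the opposite direction, high in pollen culture and low after treatment, were met by 112 identifiers. The 5 members just inside the ratio limit had ratios of 4.04 to 4.24, and the 5 identifiers just outside had 3.41 to 3.79. At the level limit, the 5 lowest members had 20.2 to 20.5 CPM in their lowest treated library, and the 5 nearest non-members 19.5 to 19.9 CPM. The fewest pollen-culture reads among members were 4.

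**Figure D1:**
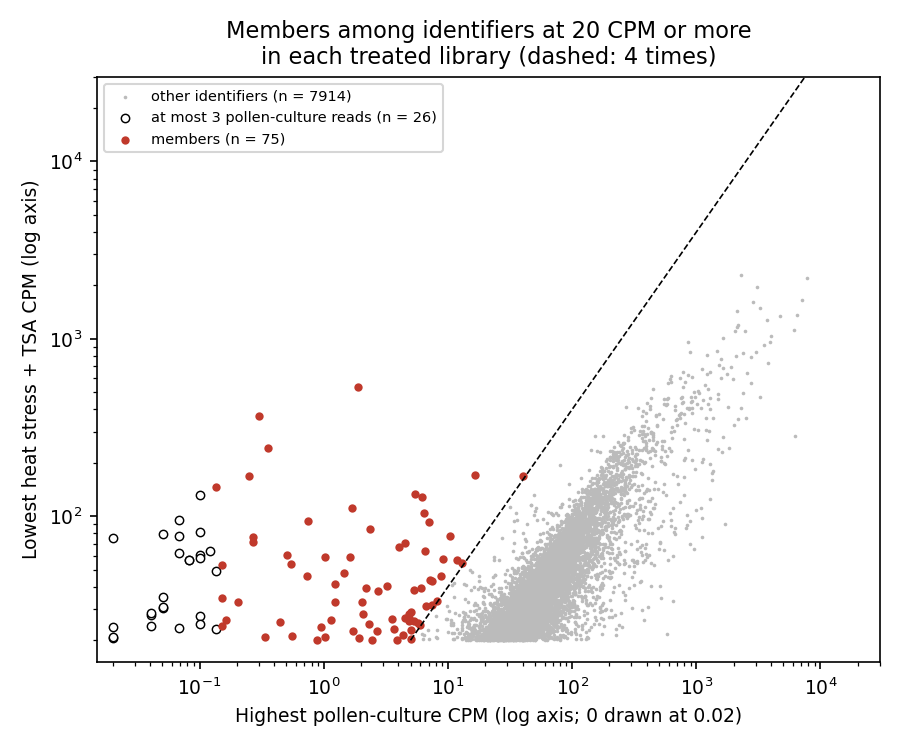
Each point is an identifier with at least 20 CPM in every treated library, plotted by its highest pollen-culture CPM (horizontal, log axis, with 0 drawn at 0.02) and its lowest heat stress plus TSA CPM (vertical, log axis). The 75 members (filled) lie on or above the dashed line of 4 times, between the 26 identifiers with at most 3 pollen-culture reads (open, left) and the 7914 others (grey).

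The basal level of the members in pollen culture was low but spread over more than 2 orders of magnitude. The mean over the 3 pollen-culture libraries ran from 0.0731 to 28.7 CPM, with a median of 2.05 CPM and quartiles of 0.452 and 4.51 CPM. Over replicates 2 and 3 alone the median was 1.98 CPM. In every pollen-culture library 38 members had at least 1 CPM, while 20 members stayed under 1 CPM in all 3. A pollen-culture library without any read occurred in 6 members, 1 of which had no read in 2 of the libraries. The reads behind these levels were few: 17 members had under 20 pollen-culture reads in total and 35 had under 100, against at least 1297 reads per member in the treated group. For the lowest members, counting error alone thus leaves the size of the ratio uncertain.

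The limit of 20 CPM places every member among the well expressed transcripts after treatment, so the levels, ranks and shares below are a description. In treated replicates 1 to 3 the lowest member stood at percentile 85.4, 86.2 and 88.1. Their mean treated level had a median of 58.0 CPM (quartiles 37.0 and 116 CPM) and ran from 22.2 to 944 CPM, and 20 members averaged at least 100 CPM. Over treated replicates 2 and 3 alone the median was 67.2 CPM. Ranked among the 79514 identifiers with a read in any library, the median member stood at percentile 54.4, 54.4 and 54.8 in pollen-culture replicates 1 to 3. In treated replicates 1 to 3 the median member stood at percentile 93.9, 97.1 and 96.6. Of the 1000 most abundant identifiers in each treated library, 8, 19 and 21 were members, and in each pollen-culture library 0. For scale, 8015 identifiers reached 20 CPM in each treated library, and the ratio limit holds the members' pollen-culture values down. Nothing is therefore read from these counts. Together the members took 0.0190%, 0.0217% and 0.0279% of the counts in pollen culture and 0.542%, 1.01% and 0.851% after treatment.

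**Figure D2:**
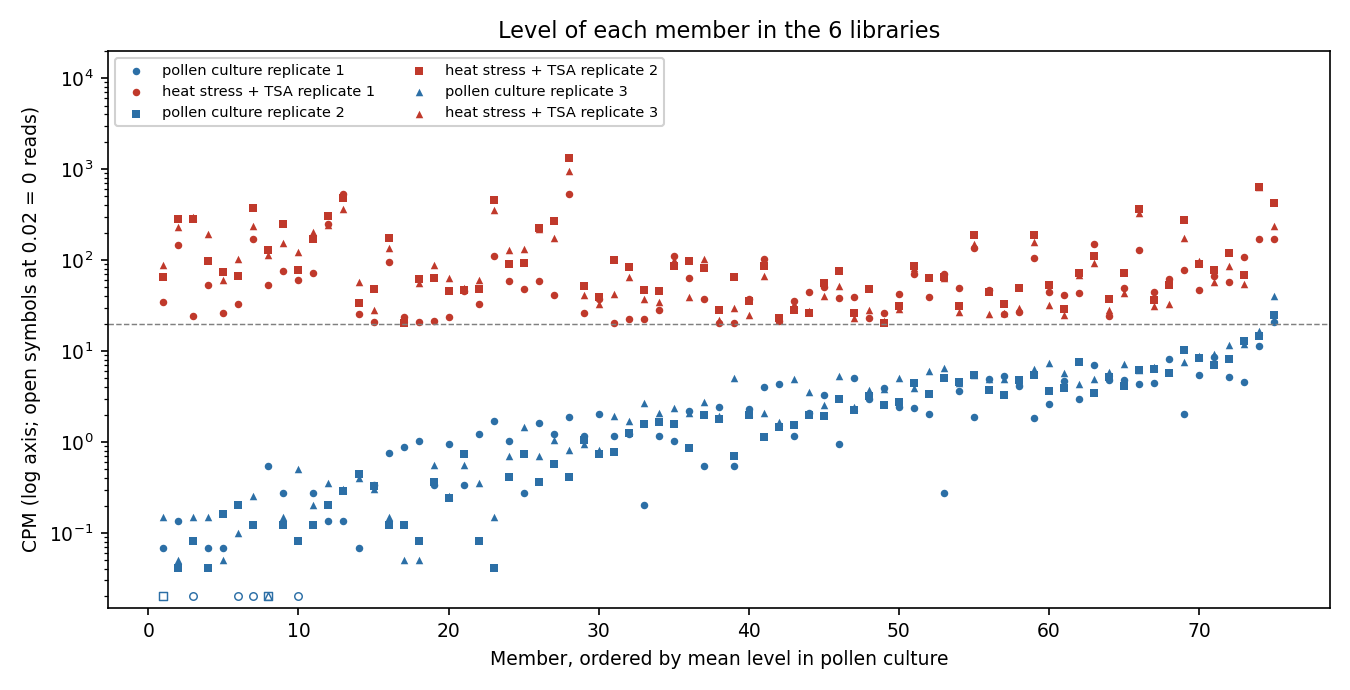
CPM (log axis) of each of the 75 members in the 3 pollen-culture libraries (blue) and the 3 heat stress plus TSA libraries (red), with members ordered by their mean pollen-culture level and the dashed line at 20 CPM. Pollen-culture values climb from about the level of single reads on the left to 28.7 CPM on the right, while treated values show no matching climb.

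The most abundant member after treatment was GSBRNA2T00112768001. It had 1.90, 0.408 and 0.806 CPM in pollen-culture replicates 1 to 3, from 28, 10 and 16 reads, and 539, 1329 and 964 CPM in treated replicates 1 to 3 (mean 944 ± 395, SD, n = 3). All treated libraries were far above all pollen-culture libraries, and replicate 1 was the highest of the pollen-culture libraries and the lowest of the treated ones. The ratio of same-numbered libraries was therefore 283 in replicate 1, against 3259 and 1195 in replicates 2 and 3. This identifier alone supplied between 9.94% and 13.1% of the members' counts in the treated libraries.

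The member with the widest gap between the groups was GSBRNA2T00092120001, whose lowest treated value was 1212 times its highest pollen-culture value. It had 0.136, 0.285 and 0.302 CPM in pollen culture, from 2, 7 and 6 reads, and 538, 484 and 366 CPM after treatment (mean 463 ± 87.7, SD, n = 3). Unlike the first, it was highest in treated replicate 1 and lowest in treated replicate 3. With 15 pollen-culture reads in all, its ratio of summed reads, scaled by library totals, was 1770 with a 95% exact (Clopper-Pearson) interval of 1073 to 3163. Reads carry no molecular identifiers, so this interval covers counting error only.

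The members with the highest and the lowest basal levels frame the group. The highest basal level was 20.9, 25.1 and 40.1 CPM in pollen-culture replicates 1 to 3, in a member with 168, 421 and 237 CPM after treatment. Its lowest treated value was 4.20 times its highest pollen-culture value, close to the limit. The member next in basal level had 11.3, 14.5 and 16.6 CPM in pollen culture and reached 170, 638 and 629 CPM, a ratio of means of 33.9. At the other end, the lowest basal mean, 0.0731 CPM, came from 1, 0 and 3 reads. That member had 34.8, 64.8 and 87.7 CPM after treatment. Another member with equally few pollen-culture reads in total, 2, 1 and 1, had 146, 280 and 233 CPM after treatment. Its ratio of summed reads was 3473 with a counting interval of 1356 to 12747, so its place as the largest fold among the members rests on 4 reads.

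Folds were largest where the basal level was lowest. The ratio of the group means had a median of 33.9 and ran from 5.66 to 2898. Over replicates 2 and 3 alone the median was 35.2, in the 74 members with a pollen-culture read there. It was under 10 in 16 members, at least 100 in 24 and at least 1000 in 6. The 20 members with a pollen-culture mean under 0.5 CPM had a median ratio of 616 (range 63.2 to 2898) and a median treated mean of 93.0 CPM. The 17 members between 0.5 and 2 CPM had a median ratio of 59.4 (22.1 to 908) at a median treated mean of 66.4 CPM. In the 25 members between 2 and 5 CPM the median ratio was 12.5 (6.20 to 37.0) and the median treated mean 36.0 CPM. The 13 members at 5 CPM and above had a median ratio of 10.3 (5.66 to 49.6) and a median treated mean of 78.2 CPM. These ranges of basal level were set after the values were seen. Across the 75 members Spearman's rho between the basal and the treated level was -0.17, and that between the basal level and the ratio was -0.86. The basal level is a term of the ratio, and the selection limits both axes, so neither value is a test.

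All 75 members passed the filter on low counts and all 75 were called higher by edgeR's quasi-likelihood test at a Benjamini-Hochberg adjusted p of 0.05, where 6.66% of the 49871 identifiers tested were called higher. The selection used this contrast, so nothing is read from that count. Adjusted p-values ran from 0.000541 to 0.0301. The fitted log2 fold changes had a median of 5.03, from 2.40 to 11.43, beside a median of -0.01 over all identifiers tested. Fitted to replicates 2 and 3 alone, edgeR called all 75 members higher and 12.6% of the identifiers tested, and the members' median log2 fold change was 5.29. GSBRNA2T00112768001 had a log2 fold change of 9.79 (SE 0.84, edgeR adjusted p = 0.00165) and GSBRNA2T00092120001 one of 10.69 (SE 0.44, edgeR adjusted p = 0.000541). The highest adjusted p belonged to a member with 0.544, 0.693 and 5.04 CPM in pollen culture and 20.4, 64.6 and 29.5 CPM after treatment, in which pollen-culture replicate 3 was well above its partners. With library totals alone as scaling, as in the CPM values here, the median over all identifiers was 0.12 instead of -0.01, and that over the members 5.08 instead of 5.03.

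Identifiers chosen on the libraries of 2 replicate numbers were mostly also higher in the treated library of the third. The members themselves were chosen on all libraries, so no library stands outside their choice, and these values describe the rule. The selection was repeated on the libraries of 2 replicate numbers, and the treated-to-pollen ratio was then read in the pair of the third number, with pollen-culture values under 3 reads set to 3 reads. Chosen without replicate 1, 171 identifiers passed, 71 of them members. In the replicate 1 pair all 171 were higher in the treated library and 146 of them (85.4%) at least 4 times higher, against 2.67% of the 9299 identifiers with at least 20 CPM in both other treated libraries and more than 3 reads in the other pollen-culture libraries. Their median ratio was 19.96 in the replicates that chose them and 15.3 in the replicate 1 pair.

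Chosen without replicate 2, 72 passed, 71 of them members, and all 72 were at least 4 times higher in the replicate 2 pair, against 1.8% of 8245. Chosen without replicate 3, 105 passed, 69 of them members. Of the 105, 100 were higher and 77 (73.3%) at least 4 times higher in the replicate 3 pair, against 1.09% of 8867. The lowest ratio there was 0.327, so a few identifiers chosen on replicates 1 and 2 lay lower in the treated library of replicate 3. Each left-out pair holds 1 library a group, so no test was made in it. Its libraries share only their number, and the identifiers counted are not replicates of the treatment.

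**Figure D3:**
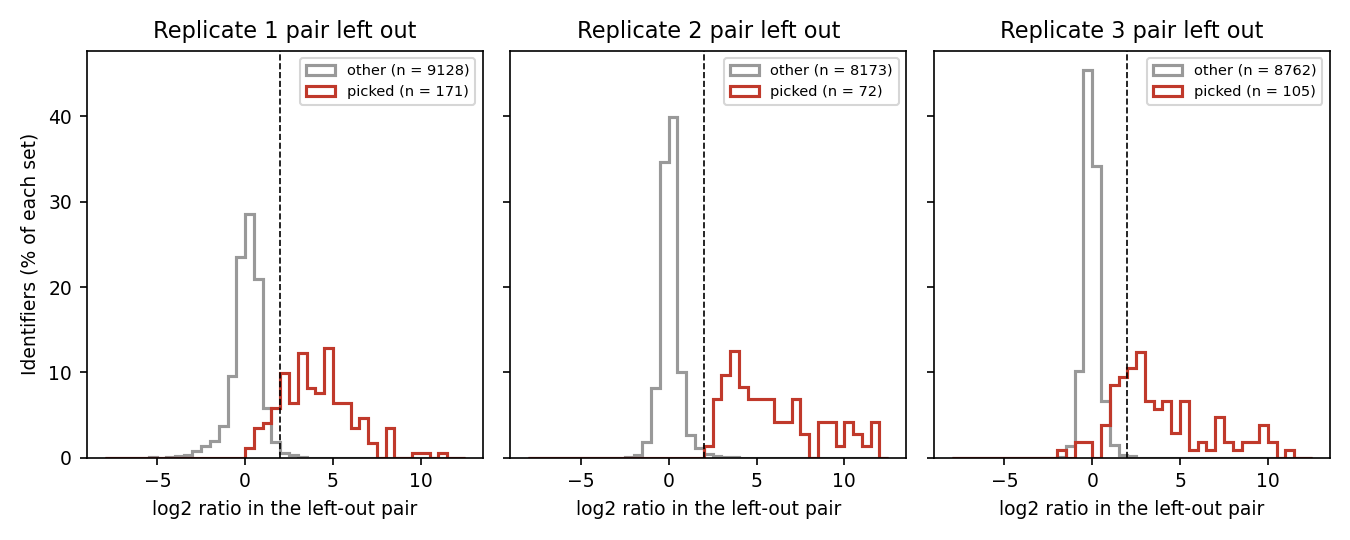
Distribution of the log2 ratio of treated over pollen-culture CPM in the replicate pair that took no part in the choice, as a percentage of the identifiers chosen on the other 2 pairs (red) and of the other identifiers at 20 CPM or more in both other treated libraries (grey), with the dashed line at 4-fold. The chosen identifiers lie mostly to the right of the line in each panel, with 25 of 171, 0 of 72 and 28 of 105 to its left, and the others centre near 0.

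Treated replicate 1 decided how many identifiers qualified. Without that library 173 identifiers met the rule, the 75 members and 98 more, whereas leaving out any other single library gave 71 to 94. All 98 were above their highest pollen-culture value in treated replicate 1, but 90 had under 20 CPM there, and 44 were under 4 times the highest pollen-culture value. Being the identifiers that passed in replicates 2 and 3 and failed in replicate 1, they were lower in replicate 1 by choice, with a median of 11.3 CPM against 34.6 and 30.3 CPM.

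Members differed between the treated libraries, most often through a lower value in replicate 1. The highest treated value of a member was between 1.07 and 12.4 times its lowest, with a median of 1.92. It was over 2 times in 35 of 75 members (46.7%), against 23.7% of the 8015 identifiers with at least 20 CPM in every treated library. Replicate 1 was the lowest treated library in 50 members (66.7%), replicate 3 in 20 and replicate 2 in 5, whereas over the 8015 replicate 1 was lowest in 33.5% and replicate 3 in 45.5%. The median member had 1.63 times as many CPM in treated replicate 2 as in replicate 1 and 1.40 times as many in replicate 3, and the same medians over the 8015 were 0.937 and 0.875. With trimmed-mean (TMM) scaling, which corrects library totals for composition, replicate 1 was lowest in 56 members (74.7%) and in 51.5% of the 8015. The medians were then 1.88 and 1.79 for the members and 1.08 and 1.12 for the 8015. The difference between members and other identifiers in these shares was not tested.

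A pair of members shows the ends of this spread. The most uneven member had 24.0, 286 and 297 CPM in treated replicates 1 to 3 and 0, 2 and 3 reads in pollen culture. Its treated replicate 1 was thus low against the other treated libraries but still far above pollen culture. The most even member had 21.4, 22.9 and 22.1 CPM after treatment (mean 22.2 ± 0.749, SD, n = 3). It also had the lowest treated mean of all members, just above the limit of 20 CPM, which leaves little room for lower values. In pollen culture this even member had 4.35, 1.47 and 1.66 CPM, so its basal level differed more between libraries than its treated level.

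Low replicate 1 values were most common in the members with little basal expression. Of the 37 members with a pollen-culture mean under 2 CPM, 31 were lowest in treated replicate 1 and 4 in replicate 3. Of the 38 members at 2 CPM or more, 19 were lowest in replicate 1 and 16 in replicate 3, and 15 were highest in replicate 1. With TMM scaling the counts lowest in replicate 1 were 33 of 37 and 23 of 38. In the 25 members between 2 and 5 CPM the median treated replicate 3 value was 0.909 times that of replicate 1, or 1.16 times with TMM scaling, so the direction between these libraries depended on the scaling there. The 26 identifiers with at most 3 pollen-culture reads, otherwise chosen alike, were lowest in treated replicate 1 in 25 cases. The limit of 4 times also leaves members with a higher basal level less room for a low treated library, which can shape these counts. These differences between levels of basal expression were not tested.

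**Figure D4:**
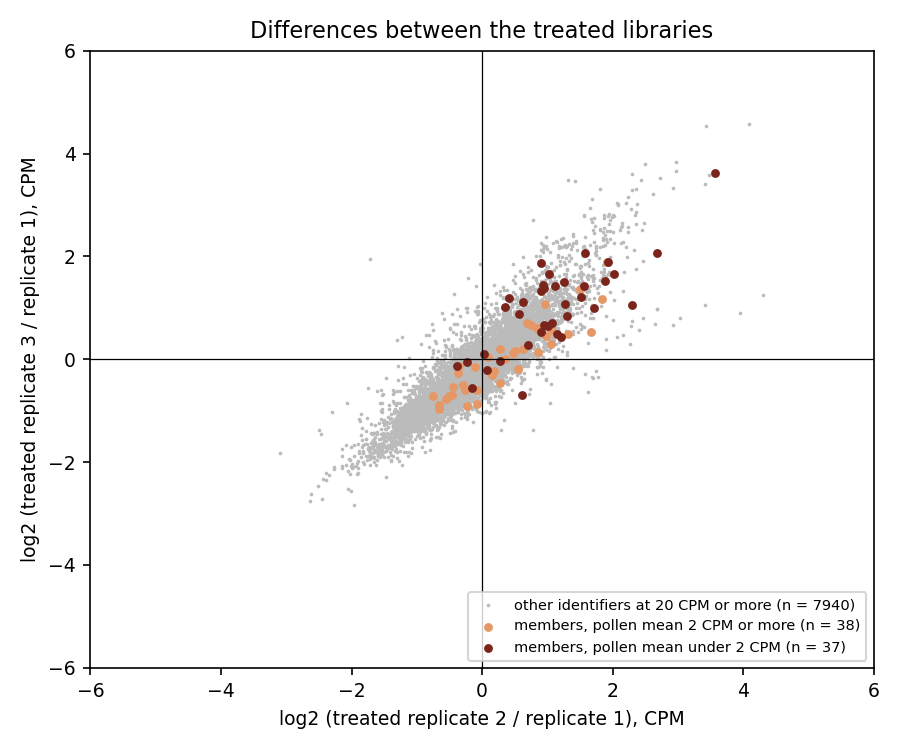
Log2 ratio of treated replicate 2 to replicate 1 (horizontal) and of treated replicate 3 to replicate 1 (vertical), in CPM by library total, for the 37 members with a pollen-culture mean under 2 CPM (dark red), the 38 at 2 CPM or more (orange) and the other 7940 identifiers with at least 20 CPM in every treated library (grey). Most dark red points lie above 0 on both axes, while the orange points are divided between the upper right and the lower left.

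A term for replicate 1, fitted beside the group in edgeR, measured the difference of replicate 1 from replicates 2 and 3 in both groups together. The selection compared the groups and set no library apart by its number, but its limits apply to replicate 1 values too, so the counts of members are given as a description. It called 15 of the 75 members lower in replicate 1 and 0 higher, with an adjusted p of 0.05. Over all identifiers tested, 9.41% were called lower and 8.44% higher. Among the 8015 with at least 20 CPM in every treated library, 8.57% were called lower and 9.15% higher. In the 15 members the log2 difference had a median of -1.59, from -3.89 to -0.74 (edgeR adjusted p 0.00354 to 0.0431). All 15 were lowest in replicate 1 of the treated libraries and 14 were lowest in replicate 1 of the pollen-culture libraries. The fitted difference was below 0 in 58 of the 75 members. By limma-voom 25 members were called lower and 0 higher, where 9.19% of all identifiers were called lower. The labels give no batch, date or other record that would say what sets replicate 1 apart.

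Whether the treatment difference itself was smaller in replicate 1 could not be settled. An interaction of treatment and replicate 1 in edgeR called 0 of the 75 members and 0% of all identifiers tested, with a lowest adjusted p of 0.149, and limma-voom also called 0. The fit has 2 residual degrees of freedom, and its 0 calls carry no information on whether the treatment differences were equal. Without adjustment, 28 members had an edgeR p under 0.05, as had 16.7% of all identifiers. Of the 28, 23 had a smaller and 5 a larger treatment difference in replicate 1. The split over all identifiers is not given, so nothing is read from these directions. By limma-voom 21 members had an unadjusted p under 0.05. The share over all identifiers is not given for that fit, so nothing is read from the count. As plain ratios of same-numbered libraries, with pollen-culture values under 3 reads set to 3 reads, the members had medians of 26.8, 44.1 and 24.9 in replicates 1 to 3. The smallest of its 3 ratios was in replicate 1 for 35 members, in replicate 3 for 36 and in replicate 2 for 4.

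Pollen-culture values also varied between libraries. In the 38 members with at least 1 CPM in every pollen-culture library, the highest pollen-culture value was a median of 1.75 times the lowest (range 1.16 to 5.08). For the same 38 members the treated median was 1.65 times. The 30780 identifiers with at least 1 CPM in every pollen-culture library and at most 40.1 CPM in any had a median of 1.59 times. It was over 2 times in 39.5% of the 38 and 28.3% of the 30780. Members with a lower pollen-culture value, in which few reads set the spread, are not in this comparison. Pollen-culture replicate 3 was the highest in 35 of all 75 members and replicate 1 in 29. The lowest was replicate 1 in 38, replicate 2 in 32 and replicate 3 in 5. With TMM scaling replicate 3 and replicate 1 were each highest in 30, and replicate 1 was lowest in 38 and replicate 3 in 11.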

How the data were processed

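RNA was sequenced from TruSeq libraries, per the labels' protocols. The authors deposited whole-number read counts per gene identifier, 1 column per library, unnormalized. The submitters' processing notes name TopHat2 (aligner) and HTSeq (counter); for versions, genome build, strand and multi-mapping settings, nothing is given in the sources used here. Columns were assigned by the sample descriptions they repeat, and groups by titles. The members and all lists, tests and ranges were chosen with earlier results of these data known.

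CPM was computed from library totals (Python 3.11.15, pandas 2.3.3). Tests were run across all identifiers in edgeR 4.0.16 (R 4.3.3): filterByExpr with a minimum count of 10, TMM scaling, quasi-likelihood F test on group, Benjamini-Hochberg adjustment, threshold 0.05. Further models added a term for replicate 1 or its interaction with group. SE is the log2 fold change over the square root of F. The fits were tested on simulated data, with 50 identifiers changed at each fold. The group fit recovered 0 at 2-fold, 8 at 4-fold, 34 at 8-fold and 46 at 16-fold. The term for replicate 1 recovered 0, 9, 40 and 47, and the interaction 0 at every fold, so smaller differences can go uncalled. The simulated spread was estimated with group alone and so includes the difference of replicate 1. These recovered counts therefore need not hold for the data. DESeq2 1.42.0, limma 3.58.1, other scalings, filters, selection limits and left-out libraries were alternatives. The printed identifiers are the members with the highest treated mean and the highest ratio of lowest treated to highest pollen-culture CPM; others are described by an extreme value. Planned gene lists and markers were not used, since 0 of 101040 identifiers matched the RefSeq table (123214 genes). P-values of the group fit set the difference against the spread between the 3 biological replicates of each group. In the fit with a term for replicate 1, the difference of replicate 1 shared by both groups is not part of that spread. In the interaction fit the spread comes from replicates 2 and 3 alone.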

Additional observations from a re-analysis of the deposited data

How the results depend on the processing

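The number of members was 75. It was 171 without the replicate 1 pair, and leaving out 1 library gave 71 to 173, the highest without treated replicate 1. With at least 10 CPM 151 identifiers passed, and 35 with at least 40 CPM. Leaving out the pair of replicate 2 or 3 gave 72 and 105. The other selection limits and scalings gave 55 to 101, with 62 by TMM-scaled CPM and 60 by DESeq2 scaling, 60 of them members in each case. The median ratio of lowest treated to highest pollen-culture CPM, 13.8, became 32.8 with at least 40 CPM, 24.6 with a ratio of at least 6 and 25.1 with no limit on pollen-culture reads. These alternatives change which identifiers are kept, by construction. All 75 members stayed called higher in 11 of 16 other treatment fits, and between 70 and 74 in the others, each of which left out 1 library. Over all identifiers the 16 fits called from 781 of 52341 higher (without pollen-culture replicate 2) to 6520 of 51653 (replicates 2 and 3 alone). Members were chosen on this contrast, so nothing is read from these counts. Deviations of libraries with equal number correlated at 0.50, 0.42 and 0.02, and since the last is not over 0.1 the numbers were not taken to pair the libraries. With the replicate block, 75 members were called at a median log2 fold change of 5.05. The term for replicate 1 called 15 members by edgeR and 25 by limma-voom; the cause was not tested. Depth limits the basal levels, since 3 reads correspond to between 0.122 and 0.204 CPM in a pollen-culture library. The planned gene lists and markers were not run, for want of gene names.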
